A study of Mus musculus with 6 samples.

Results

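A set of 10 genes that mark mesothelium and simple epithelium was followed in cultured mouse aortic smooth muscle cells: Upk1b, Upk3b, Msln, Krt7, Krt8, Krt18, Krt19, Cdh1, Ppl and Wt1. The genes were chosen by their epithelial or mesothelial role with earlier results of these arrays known, and the difference in intensity between the genotypes was already in view for Upk1b, Upk3b, Msln, Cdh1 and Ppl. The differences of the set are therefore described here and not tested. Every probe whose platform symbol was one of these names was taken, detected or not. This gave 16 of the 45281 probes on the array, for 9 of the 10 genes. No probe is listed under Wt1, the gene of a zinc finger transcription factor of mesothelium, in the platform annotation used here, and its level was not analysed here.

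The study compared aortic smooth muscle cells of C57Bl/6 mice that were wild-type or FHL2-knockout, and its question was the function of FHL2 in these vascular cells. FHL2 is an adaptor protein built of zinc-binding LIM domains. Each genotype had 3 culture batches, each from the pooled aortas of 3 mice, so that 9 mice stood behind a genotype, and all cells were grown to confluency and then kept for 48 h without serum. Each batch was hybridised to 1 Illumina beadchip array. The labels give no age or sex of the mice, and they do not state how the knockout allele was made. Because the aortas were pooled, values of single mice were not measured.

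Mesothelium is the flat cell sheet that covers the heart, the lungs and the body cavities, and its cells carry both epithelial features, such as keratins, and mesenchymal ones. Epithelial cells are held together by E-cadherin at adherens junctions and by desmosomes, to which keratin filaments are anchored through plakin proteins. Keratin filaments are built from pairs of a type I chain, such as keratin 18 or 19, and a type II chain, such as keratin 7 or 8. Uroplakins are membrane proteins best known from the plaques of the bladder lining. Smooth muscle cells of the vessel wall are known to use mainly vimentin and desmin for their intermediate filaments.

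Promoter sequences of 4 of the genes were held in the RefSeq promoter table (mouse GRCm38.p6), each from 250 bases before to 50 bases after an annotated start. They are shown because they belong to 1 gene with a large difference between the genotypes, Upk3b, to 1 with a small one, Krt7, and to the keratin pair Krt8 and Krt18, whose signal lay near background. Capitals mark 4 short motifs searched on both strands: GGAATG, the core bound by TEAD factors, CACCTG, the E-box bound by Snail and ZEB repressors, TATAAA, the TATA box, and GGGCGG, the GC box. Each sequence reads 5′ to 3′ on the strand of its gene.
Upk3b, chr5:136038246-136038545, plus strand: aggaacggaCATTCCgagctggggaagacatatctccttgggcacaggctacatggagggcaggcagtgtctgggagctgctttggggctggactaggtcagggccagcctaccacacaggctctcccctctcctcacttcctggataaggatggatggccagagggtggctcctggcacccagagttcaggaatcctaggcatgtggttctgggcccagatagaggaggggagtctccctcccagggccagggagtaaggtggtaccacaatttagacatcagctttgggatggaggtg
Krt7, chr15:101412153-101412452, plus strand: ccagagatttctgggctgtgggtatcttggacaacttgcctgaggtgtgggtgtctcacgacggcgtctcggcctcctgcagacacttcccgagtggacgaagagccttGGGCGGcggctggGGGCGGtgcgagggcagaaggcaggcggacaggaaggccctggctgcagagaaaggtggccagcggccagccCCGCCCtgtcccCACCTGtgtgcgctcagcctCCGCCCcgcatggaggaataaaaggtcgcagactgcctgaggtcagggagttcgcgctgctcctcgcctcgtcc
Krt8, chr15:102004293-102004592, minus strand: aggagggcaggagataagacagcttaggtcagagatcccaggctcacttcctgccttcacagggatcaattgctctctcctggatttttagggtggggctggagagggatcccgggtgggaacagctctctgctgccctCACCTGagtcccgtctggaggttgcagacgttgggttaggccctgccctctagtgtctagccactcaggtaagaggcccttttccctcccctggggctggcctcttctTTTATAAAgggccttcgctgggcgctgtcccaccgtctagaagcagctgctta
Krt18, chr15:102027966-102028265, plus strand: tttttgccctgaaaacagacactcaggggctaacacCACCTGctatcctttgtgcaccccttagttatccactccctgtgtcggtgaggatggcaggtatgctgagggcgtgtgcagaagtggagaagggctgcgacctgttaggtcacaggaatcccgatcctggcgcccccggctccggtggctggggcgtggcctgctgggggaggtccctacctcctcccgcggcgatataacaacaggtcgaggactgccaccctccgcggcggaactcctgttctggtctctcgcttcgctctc

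The E-box letters stood in all 3 keratin windows, 44 bases before the start in Krt7, 111 in Krt8 and 214 in Krt18, and not in that of Upk3b. Among all 32851 promoters of the table, 20.2% held them. The TEAD core stood in the Upk3b window alone of these 4, on the opposite strand, 241 bases before the start, and in 14.7% of all promoters. The TATA box letters stood in Krt8 alone of these 4, and in 13.6% of all promoters. In Krt8 the forward and reverse matches overlap, and they begin only 1 and 3 bases before the annotated start. The GC box stood 4 times in Krt7 alone and in 35.7% of all promoters. These matches are letters in a window and not measured binding.

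Median raw intensity ran from 116 in wild-type replicate 2, the dimmest array, to 172 in wild-type replicate 1, and 14844 to 16115 probes were detected per array, that is, had a detection p-value under 0.05 against negative control beads. Fhl2, on chromosome 1, was measured by 2 probes. The brighter, ILMN_2770386, had normalized log2 values of 11.23, 11.37 and 11.51 in wild-type replicates and fell by 4.57 ± 0.15 (SE, limma adjusted p = 9.66e-07), but it was still detected on all 3 knockout arrays, at 6.70, 6.65 and 7.04. The other, ILMN_1213912, was detected on 3 wild-type and 0 knockout arrays, at least 8.12-fold lower (limma adjusted p = 1.87e-06). Across all 15527 probes that were detected on at least 3 arrays, 14.4% were higher and 15.2% lower in knockout cells at an adjusted p under 0.05. Counted by gene, with each gene represented by its brightest such probe, 14.8% of 9051 genes were higher and 16.5% lower. These shares are the background for every count below.

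Signal for the epithelial and mesothelial set was found mostly in the knockout cells. Of the 10 genes, 6 had a probe detected on all 3 knockout arrays (Upk1b, Upk3b, Msln, Krt7, Cdh1 and Ppl) and only Upk3b had one detected on all 3 wild-type arrays. A total of 7 of the 16 probes were detected on all 3 knockout arrays and on no wild-type array, a pattern shown by 0.457% of all probes on the array. Another 3 probes were detected on no array. The filter of detection on at least 3 arrays was passed by 10 probes of 6 genes, and 7 of these 10 passed through the knockout arrays alone, so that counts over the 10 describe the choice of genes and are no evidence of their direction. In 9 of the 10, all 3 knockout arrays lay above all 3 wild-type arrays, which held for 22.1% of all probes kept. Fewer cells of a type and less RNA per cell cannot be told apart in these bulk cultures.

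**Figure D1:**
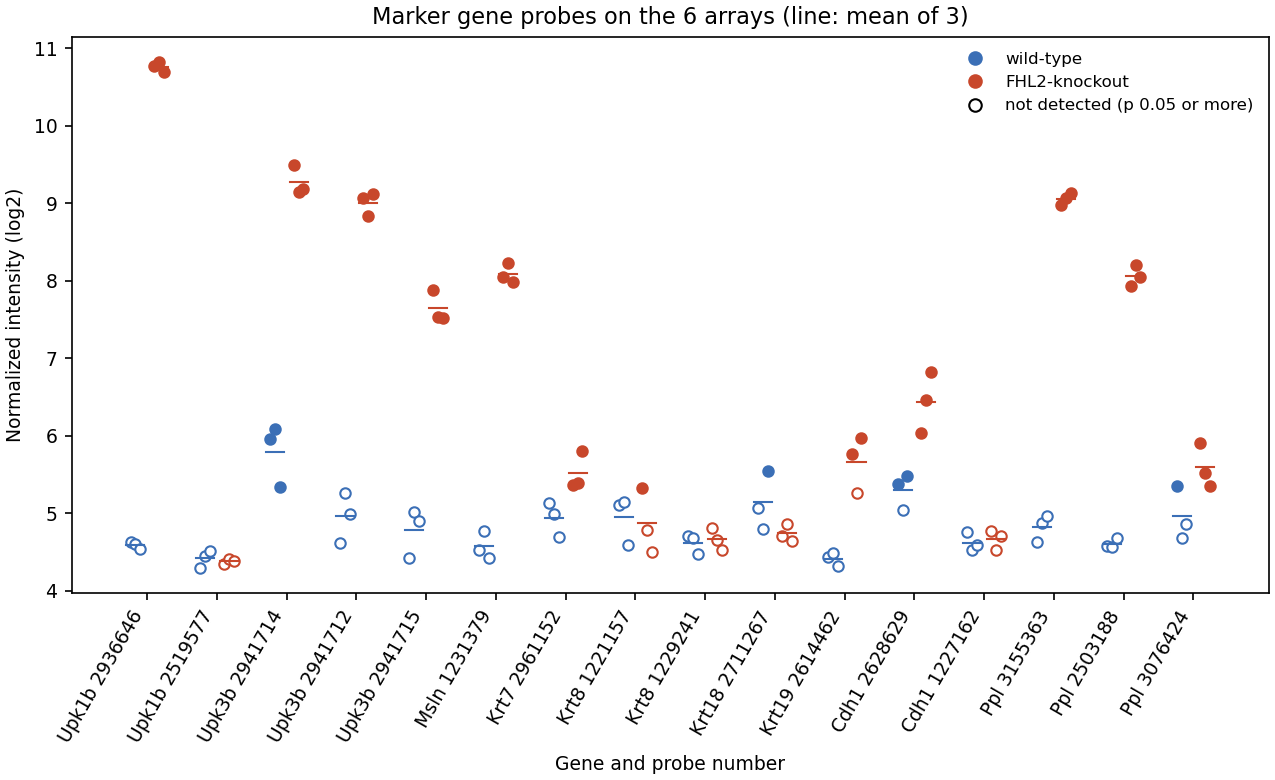
Normalized log2 intensity (vertical axis) of the 16 probes, named by gene and probe number, on 3 wild-type (blue) and 3 FHL2-knockout (red) arrays. Each point is 1 array, open where the probe was not detected, and a short line is the mean of 3. Upk1b, Upk3b, Msln and 2 Ppl probes stood far above wild-type on all knockout arrays, while both Krt8 probes, Krt18, and 1 probe each of Upk1b and Cdh1 lay near background in both genotypes.

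Upk1b codes for uroplakin 1b, a membrane protein of the tetraspanin family that is made by urothelium and mesothelium, and lies on chromosome 16. Raw intensity of its probe ILMN_2936646 was 161, 111 and 137 in wild-type replicates 1, 2 and 3 and 1876, 1936 and 1509 in knockout replicates 1, 2 and 3. The wild-type values lay below the median of all probes on their arrays and were not detected, with detection p-values of 0.434, 0.581 and 0.734, whereas the detection p was 0 on each knockout array. After normalization the means were 4.59 ± 0.05 (SD, n = 3) and 10.76 ± 0.06 (SD, n = 3) on the log2 scale, the second for knockout cells, a difference of 6.17 ± 0.11 (SE). Since wild-type cells gave no detected signal, the fold is a bound, at least 45.6-fold higher, which sets the knockout mean against the lowest detected signal on each wild-type array. The other probe of the gene, ILMN_2519577, was detected on no array, with raw intensities of 104 to 143 and a difference of -0.04. Both probes are annotated to the same transcript record, and their positions on it were not used here.

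Upk3b, on chromosome 5, codes for uroplakin 3b, a membrane protein that is likewise a marker of mesothelium. Its 3 probes were all higher in knockout cells. The brightest, ILMN_2941714, had normalized log2 values of 5.96, 6.08 and 5.34 in wild-type and 9.49, 9.15 and 9.18 in knockout replicates, a difference of 3.48 ± 0.21 (SE) or 11.1-fold. It was the probe of the set with detected signal on all wild-type arrays, at detection p-values of 0, 0.00107 and 0.0246. Probe ILMN_2941712 was not detected in wild-type cells, where its values were 4.62, 5.26 and 4.995, and reached 9.06, 8.84 and 9.12 in knockout cells, at least 13.5-fold higher. ILMN_2941715 likewise lacked wild-type detection and was at least 5.26-fold higher, so the size of the difference varied among the probes of 1 gene while its direction did not.

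Msln codes for the precursor of mesothelin, a surface protein anchored by a lipid that is abundant on mesothelial cells, and lies on chromosome 17. Its only probe, ILMN_1231379, gave raw intensities of 153, 115 and 129 in wild-type and 395, 436 and 329 in knockout replicates. No wild-type array detected it, at detection p-values of 0.711, 0.318 and 0.935, and each knockout array did, at 0. The normalized means were 4.57 ± 0.17 (SD, n = 3) and 8.09 ± 0.13 (SD, n = 3), a difference of 3.51 ± 0.14 (SE) on the log2 scale and at least 7.15-fold. The 3 knockout values lay within 0.25 of each other.

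Ppl, on chromosome 16, codes for periplakin, a plakin that links intermediate filaments to desmosomes and the cell cortex. Its brightest probe, ILMN_3155363, had normalized log2 values of 4.64, 4.88 and 4.97 in wild-type replicates, none detected, and 8.98, 9.06 and 9.13 in knockout replicates. The difference was 4.23 ± 0.13 (SE), at least 14.01-fold. ILMN_2503188 was at least 7.02-fold higher and was also not detected in wild-type cells. The third probe, ILMN_3076424, differed from these: raw intensities were 197, 113 and 153 in wild-type and 188, 189 and 154 in knockout replicates, and its normalized values overlapped between the genotypes, at 5.36, 4.68 and 4.87 against 5.91, 5.52 and 5.35. Its difference was 0.63 ± 0.21 (SE), with detection on 1 wild-type and 3 knockout arrays. All 3 probes are annotated to the same transcript record, so what they measure separately cannot be read from the annotation.

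**Figure D2:**
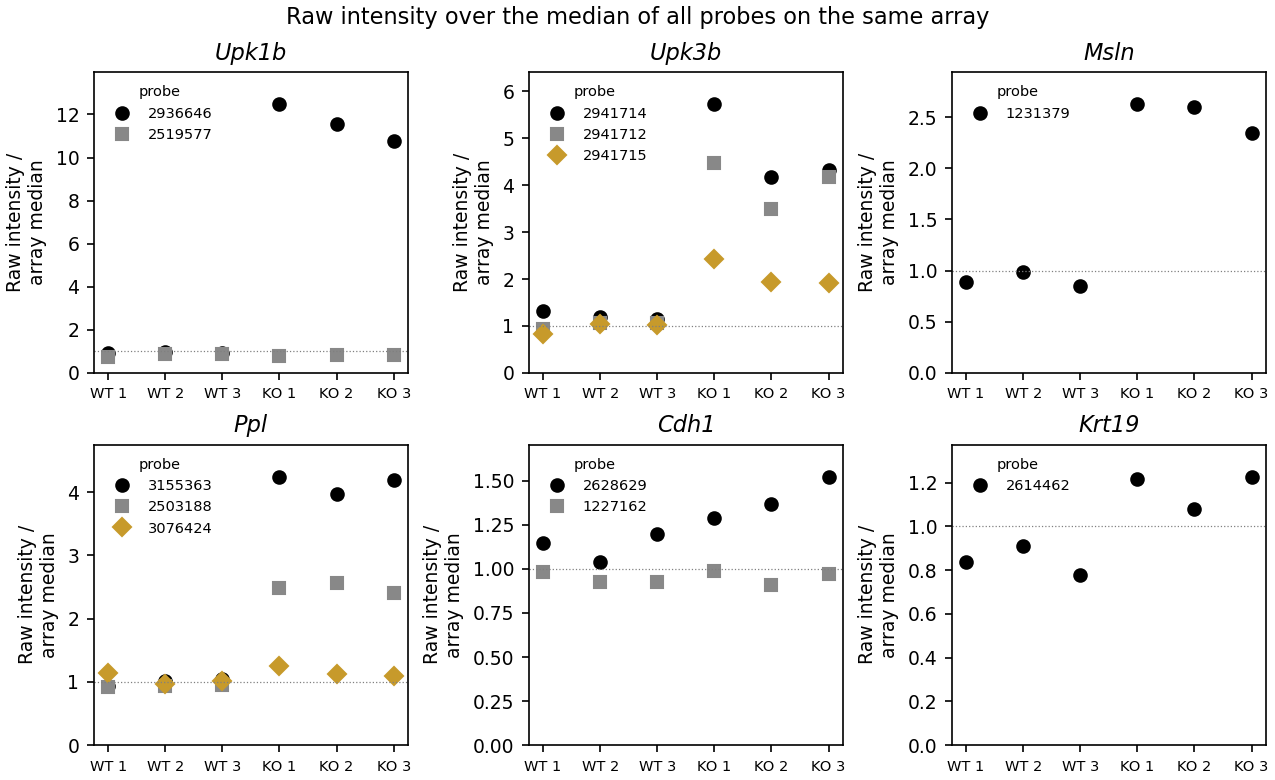
Raw intensity divided by the median intensity of all probes on the same array (vertical axis, 1 marked by a dotted line) for each wild-type (WT) and knockout (KO) replicate, with 1 symbol per probe. Upk1b ILMN_2936646 was at 10.8 to 12.5 times the array median in knockout cells and at 0.91 to 0.95 times in wild-type cells, without any background correction. The Cdh1 and Krt19 probes differed from the array median by far less.

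Cdh1 codes for E-cadherin, the adhesion protein of epithelial adherens junctions. Probe ILMN_2628629 had normalized log2 values of 5.37, 5.05 and 5.48 in wild-type replicates, the second not detected, and 6.03, 6.46 and 6.83 in knockout replicates, all detected. The groups did not overlap, and the difference was 1.14 ± 0.22 (SE) or 2.20-fold. Its raw intensities overlapped, at 197, 121 and 181 in wild-type and 194, 229 and 213 in knockout replicates. Probe ILMN_1227162, annotated to another transcript record of the gene, was detected on no array and differed by 0.05. Among the kept probes, that of Cdh1 had the widest spread over the knockout arrays, 0.80 on the log2 scale, and that of Upk1b the narrowest, 0.13.

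The 4 keratins, which form the filaments of simple epithelia and mesothelium, gave little signal in either genotype. For Krt7 (type II), on chromosome 15, normalized log2 values were 5.13, 4.996 and 4.69 in wild-type and 5.36, 5.39 and 5.81 in knockout replicates. Its knockout detection p-values were 0.0331, 0.0417 and 0.00214, so it passed the filter only just. The difference was 0.58 ± 0.17 (SE), at least 1.21-fold. Krt19 (type I), on chromosome 11, just missed the filter, because it was detected on knockout arrays 1 and 3 but not on array 2, at a p of 0.0577. Its values of 4.43, 4.48 and 4.32 in wild-type and 5.77, 5.26 and 5.97 in knockout replicates did not overlap, with a difference of 1.25, at least 1.33-fold.

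The pair Krt8 and Krt18, whose proteins form filaments with each other, was close to background throughout. Krt8 was measured by 2 probes, of which ILMN_1221157 was detected on knockout replicate 1 alone and ILMN_1229241 on no array, with differences of -0.08 and 0.04. Krt18 was detected on wild-type replicate 3 alone and differed by -0.40, with overlapping groups. No statement on a change of either gene is possible at this signal.

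The knockout arrays were not ordered in 1 way by these genes. Among the 10 kept probes, several of them of Upk3b or Ppl, knockout replicate 1 was the highest of the 3 in 3, replicate 2 in 3 and replicate 3 in 4. This order concerns spreads of 0.13 to 0.80 on the log2 scale within the knockout arrays and not the differences between genotypes. Summed over the 9 measured genes, normalized intensity on the linear scale was 278 to 301 on the wild-type and 3327 to 3460 on the knockout arrays. For 6 of the 9, the probe in this sum was detected on no wild-type array, and Upk1b gave the largest part of the knockout sum. All 6 genes with a kept probe differed in the same direction whichever array was left out: Upk1b by 6.14 to 6.20, Ppl by 4.13 to 4.30, Msln by 3.44 to 3.61, Upk3b by 3.25 to 3.62, Cdh1 by 0.94 to 1.34 and Krt7 by 0.43 to 0.68. The sizes depended on the background correction. Without it the differences were 3.69 for Upk1b, 2.10 for Ppl, 1.99 for Upk3b, 1.51 for Msln, 0.37 for Cdh1 and 0.17 for Krt7.

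Genes with the most similar profile were found by the root mean square difference over the 6 arrays, each probe centred on its own mean. They are a description, since the profile of each member holds the same difference between genotypes. Closest to Upk1b was the monooxygenase gene Moxd1, at a distance of 0.66, followed by Cib3 at 0.94 and Akap5 at 0.97. Ppl lay next to Aldh3a1, an aldehyde dehydrogenase, at 0.09, then Atp1b1 at 0.11 and Akap5 at 0.13. For Msln the closest were Map2 at 0.16, Smpd3 at 0.17 and Adam23 at 0.20. Upk3b had Msln itself as its nearest neighbour within the set, at 0.22, closer than Rflna at 0.26, Hopx at 0.27 and Adam23 at 0.27 outside it. Cdh1 lay next to Pbx4 at 0.11, Gramd3 at 0.12 and Nckap5 at 0.13, and Krt7 next to Phax at 0.06, Rpf2 at 0.09 and Cox7b at 0.09.

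Other genes of the same families and cell types were then compared in the fit over all probes. Their lists were also chosen with earlier results of these arrays known, so their counts are no independent test of the set. Over 6 lists, 134 genes outside the set had a probe, 29 were kept, and 16 of these were higher and 1 lower in knockout cells, beside 14.8% and 16.5% of all genes. Their median difference was 0.79, and that of all genes -0.01. Of the 29, 4 were kept through the knockout arrays alone. Among the 24 detected in both genotypes, 12 were higher. With the arrays scaled to a common median in place of quantile normalization, 11 of the 16 remained past the threshold. Gata6, Thbd, Pdpn, Nkain4 and Llgl2 did not.

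Other mesothelial and epicardial markers were mostly higher in knockout cells: 10 of 11 kept genes rose and 0 fell, out of 22 with a probe. Normalized log2 values of Pkhd1l1, a large membrane protein related to fibrocystin, were 4.79, 4.67 and 5.37 in wild-type and 8.04, 8.22 and 8.02 in knockout replicates, a rise of 3.15 ± 0.19 (SE) with detection on 1 of 3 wild-type arrays (limma adjusted p = 1.57e-05). The annexin gene Anxa8 rose 3.81-fold (adjusted p = 2.87e-05). The zinc finger factor Bnc1, basonuclin 1, had no detected wild-type signal and was at least 2.86-fold higher (adjusted p = 4.73e-05). Tbx18, a T-box factor of the epicardium, rose by 1.52 ± 0.17 (SE, adjusted p = 3.52e-04) and the zinc finger factor Gata6 by 0.79 ± 0.13 (SE, adjusted p = 0.0031), or by 2.22 by its other probe. Among the 5 others that rose, Aldh1a2, a retinoic acid synthesis enzyme, lost its call without wild-type replicate 1 or 3 or knockout replicate 1 or 3. Slpi went the other way but was not kept, with detection on 2 wild-type and 0 knockout arrays. Its values of 6.00, 5.25 and 5.33 in wild-type and 4.88, 4.73 and 5.06 in knockout replicates did not overlap, with a difference of -0.64. Not all of these markers were present: by their brightest probe, 8 of the 22 were detected on no array. These were Lrrn4, Calb2, the gene of calretinin, Gata4, Gata5, Tcf21, Crb2, Sema3d and Hand2.

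Epithelial identity genes were mostly undetected. Of 33 with a probe, 21 were detected on no array by their brightest probe, among them the adhesion gene Epcam, the splicing regulators Esrp1 and Esrp2, the transcription factor Grhl2 and the claudins Cldn3 and Cldn4. Of the 8 kept, 4 rose and 0 fell. Cxadr, a junctional adhesion protein that viruses use as a receptor, had values of 6.72, 6.35 and 6.71 in wild-type and 9.81, 9.95 and 10.01 in knockout replicates and rose 10.04-fold (limma adjusted p = 3.13e-06). Its other kept probes rose by 3.50 and 1.21 on the log2 scale. The unconventional myosin Myo5b and P-cadherin (Cdh3), neither with a detected wild-type signal, were at least 1.88-fold and 1.996-fold higher. The polarity gene Llgl2 rose 1.84-fold, and Ovol2 gave 0.32 ± 0.14 (SE, adjusted p = 0.124). The other kept genes, Elf3, Grhl1 and Cldn7, gave -0.35, -0.27 and -0.20 (adjusted p = 0.494, 0.289 and 0.311).

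**Figure D3:**
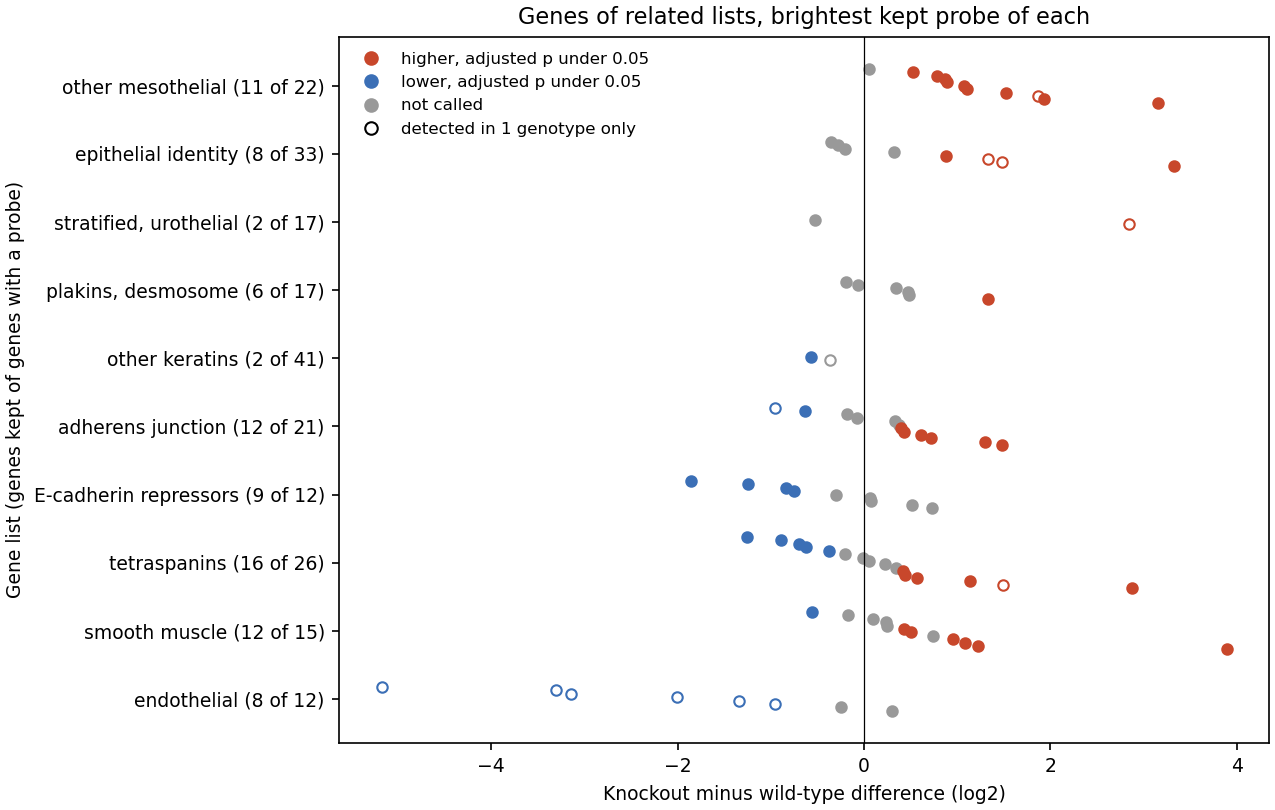
Knockout minus wild-type difference on the log2 scale (horizontal axis) of each kept gene in 10 lists, by its brightest kept probe, with the number kept of those with a probe beside each list name. Red points were higher, blue lower and grey not called at an adjusted p of 0.05, and open points were detected in 1 genotype only. Mesothelial genes lie to the right of 0, and 6 endothelial genes, all open, lie to the left.

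The remaining lists of epithelial structure showed few calls. Among 41 other keratins with a probe, 2 were kept. Krt10 fell by 0.57 ± 0.15 (SE, limma adjusted p = 0.026), a call lost with median scaling and without wild-type replicate 1 or 3 or knockout replicate 2 or 3, and Krt15 gave -0.36 (adjusted p = 0.0837). None of the 4 other uroplakins (Upk1a, Upk2, Upk3a and Upk3bl) was kept, and Upk1a and Upk3a were each detected on 1 knockout array. In the stratified epithelium and urothelium list, 2 of 17 were kept: the pioneer transcription factor Foxa1 was at least 5.35-fold higher, with 0 wild-type and 3 knockout arrays detected (adjusted p = 2.61e-06), and suprabasin (Sbsn) gave -0.53 (adjusted p = 0.107). The transcription factor Gata3, detected on 2 wild-type and 0 knockout arrays, was not kept. Its values of 5.13, 5.38 and 5.67 in wild-type and 4.53, 4.62 and 4.87 in knockout replicates differed by -0.72. Among 17 other plakin and desmosome genes, 6 were kept and 1 rose: Pkp4, an armadillo protein of cell junctions, by 2.52-fold (adjusted p = 1.05e-04). Pkp2, a desmosomal plaque protein, gave 0.48 (adjusted p = 0.111) by its brightest probe and rose by 0.90 by its other one (adjusted p = 0.0041). Plectin (Plec), detected on all arrays, gave -0.19 ± 0.13 (SE, adjusted p = 0.341), and no probe was listed for the desmosomal plakin Dsp.

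Tetraspanins, the family of Upk1b, went both ways. Of 16 kept, 6 rose and 5 fell. With median scaling, 3 of the 6 and 2 of the 5 kept their call, without Tspan4, Cd9, Cd151, Tspan3, Tspan14 and Tspan17. When 1 array was left out, 4 or 5 kept the call higher and 3 to 5 the call lower: Tspan4, Cd9, Tspan17 and Tspan3 were lost without knockout replicate 2, and the first 3 of these in 5 of the 6 such fits each. Tspan8 rose 7.37-fold (limma adjusted p = 3.1e-06), Tspan15 was at least 1.75-fold higher (adjusted p = 1.82e-04) and Cd82 rose by 1.14 ± 0.11 (SE, adjusted p = 2.11e-04), while Tspan6 and Tspan32 fell by 1.25 ± 0.12 (SE, adjusted p = 1.86e-04) and by 0.89 ± 0.13 (SE, adjusted p = 0.00153). The median difference of the 16 was 0.14. These calls are by the brightest probe. Other kept probes gave -0.05 for Tspan3 (adjusted p = 0.881) and 0.47 for Tspan4 (adjusted p = 0.13). Those of Tspan17 gave -0.32 and 0.59 (adjusted p = 0.352 and 0.146). The other kept probes of Tspan6 and Cd151 passed in the same direction as the brightest.

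A list of adherens junction genes, where E-cadherin acts, and of other cadherins, T-cadherin among them, rose in 6 and fell in 2 of 12 kept cases. With median scaling, 2 of the 6 and 1 of the 2 kept their call, without Ctnna1, Ctnnal1, Ctnnd1, Nectin2 and Vezt. Without knockout replicate 1, without knockout replicate 2 or without wild-type replicate 3, 3 of the 6 kept it. The largest rises were those of Cdh13, T-cadherin, by 1.48 ± 0.14 (SE, limma adjusted p = 1.45e-04), and of the nectin Nectin3, by 1.30 ± 0.15 (SE, adjusted p = 4.96e-04), while Nectin2 gave 0.72 (adjusted p = 0.00358, or 0.305 with median scaling). The cytoplasmic catenin Ctnnd1, which binds E-cadherin directly, rose by 0.61 (adjusted p = 0.023), a call lost without wild-type replicate 1 or 3 or knockout replicate 1 or 2. The endothelial Cdh5 was detected on 3 wild-type and 0 knockout arrays, at least 1.40-fold lower (adjusted p = 0.00542), a call lost at a detection p under 0.01.

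Repressors of E-cadherin transcription fell in 4 of 9 kept cases and rose in 0. Snai2 (Slug) had normalized log2 values of 10.59, 10.55 and 10.50 in wild-type and 8.48, 8.68 and 8.90 in knockout replicates, a fall by 1.86 ± 0.14 (SE, limma adjusted p = 4.37e-05). Snai1 (Snail) fell by 1.24 ± 0.15 (SE, adjusted p = 5.8e-04), Twist2 by 0.83 ± 0.14 (SE, adjusted p = 0.00272) and Zeb2 by 0.75 ± 0.15 (SE, adjusted p = 0.00787). Zeb2 did not pass with median scaling (adjusted p = 0.0893). Foxc2 went the other way, at 0.73 (adjusted p = 0.0719), with detection on all arrays and no overlap of the groups. Gsc gave 0.52 (adjusted p = 0.0553) and Tcf4 -0.30 (adjusted p = 0.112). Zeb1 and Twist1, detected on all arrays, gave 0.06 and 0.08. The median of the list was -0.30, beside -0.01 for all genes.

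**Figure D4:**
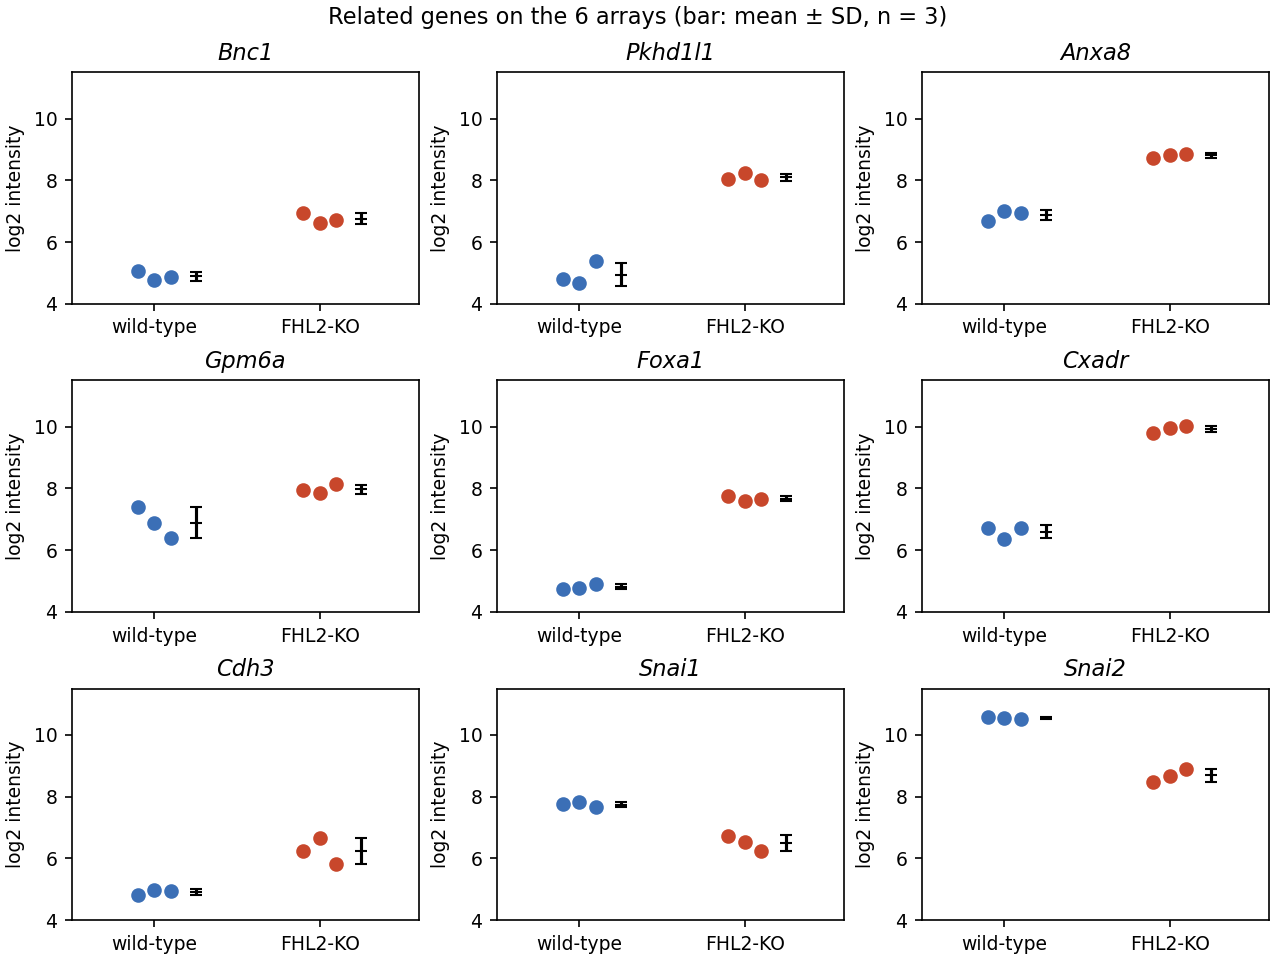
Normalized log2 intensity (vertical axis, the same range in each panel) of 9 related genes on the 3 wild-type (blue) and 3 FHL2-knockout (red) arrays, with the mean ± SD of each group in black. The mesothelial genes Bnc1, Pkhd1l1, Anxa8 and Gpm6a and the epithelial genes Foxa1, Cxadr and Cdh3 were higher on all knockout arrays, and Snai1 and Snai2 were lower.

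Intermediate filament genes other than keratins rose in 2 and fell in 2 of 6 kept cases, and with median scaling 1 of each kept its call, without Lmna and Vim. Vimentin (Vim), the filament protein of mesenchymal cells, had values of 13.36, 13.35 and 13.35 in wild-type and 12.98, 12.96 and 12.83 in knockout replicates, a fall by 0.43 (limma adjusted p = 0.0229) that did not pass with median scaling or without wild-type replicate 2 or 3 or knockout replicate 2 or 3. Synemin (Synm) fell by 1.82 ± 0.12 (SE, adjusted p = 2.59e-05), the nuclear lamin Lmnb1 rose by 1.23 ± 0.15 (SE, adjusted p = 4.95e-04), and desmin (Des) gave -0.18 (adjusted p = 0.483). Among partners and targets of the WT1 protein, 4 of 16 were kept, with 1 higher and 3 lower. Podxl, which codes for the surface sialomucin podocalyxin, had no detected wild-type signal, and its knockout level was at least 5.51-fold higher (adjusted p = 5.75e-05). Cited2 fell by 1.49 ± 0.11 (SE, adjusted p = 4.26e-05) by its brightest probe. Its other kept probes gave -0.81 and -0.74 (adjusted p = 0.0851 and 0.013). Pawr and Sox9 fell by 0.43 and 0.40, calls that each single array could remove.

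The label of the cells was checked against smooth muscle markers. Acta2, smooth muscle alpha-actin, was detected on all 6 arrays, at a mean of 14.61 ± 0.20 (SD, n = 3) for wild-type and of 15.12 ± 0.08 (SD, n = 3) for knockout cells, and Tagln was also detected on all. Myh11, smooth muscle myosin heavy chain, was detected on 1 wild-type and 2 knockout arrays, and Cnn1, calponin 1, on none by its only probe. Actg2, smooth muscle gamma-actin, had the smallest p of the list: its values of 5.71, 5.79 and 6.35 in wild-type and 9.83, 9.73 and 9.96 in knockout replicates were a 14.8-fold rise (limma adjusted p = 4.79e-06). Of 12 kept markers of the list, 6 rose and 1 fell. With median scaling 4 and 0 of these kept their call, without Acta2, Tpm1 and Mylk, and 4 rises kept it without wild-type replicate 2 or without any 1 of the knockout replicates. These calls are by the brightest probe. In the main fit, the other kept probes of Acta2 rose by 1.11, 0.92 and 0.84 (limma adjusted p = 0.00113, 0.00529 and 0.00213). The other probe of Tpm1 rose by 0.69 (adjusted p = 0.00445), and that of Mylk gave 0.17 (adjusted p = 0.546). Summed normalized intensity was 30884 to 37484 in wild-type and 48354 to 53215 in knockout cells.

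Other cell types' markers differed between the genotypes beside the epithelial and mesothelial genes. Of 8 kept endothelial markers, 6 fell and 0 rose. These 6, Emcn, Egfl7, Esam, Icam2, Pecam1 and Cdh5, had signal on each of the 3 wild-type arrays and on no knockout array. They passed the filter through the wild-type arrays alone, so that their count is no evidence of their direction. At a detection p under 0.01, 4 of them stayed called, without Cdh5 and Pecam1. The summed intensity of the 12 endothelial markers with a probe was 2050 to 2546 in wild-type and 515 to 609 in knockout cells. Fibroblast markers rose in 4 (Dcn, Col1a1, Col1a2 and Pi16) and fell in 6 (Pdgfra, Lum, Clec3b, Scara5, Cd34 and Thy1) of 12 kept cases. Their sums, in which bright genes weigh most, were 16438 to 16809 in wild-type and 20723 to 23067 in knockout cells. The call of Cd34 was lost with median scaling and in 5 of the fits without 1 array. Among 4 kept leukocyte markers 1 (Cd14, not with median scaling) rose and 1 fell, with sums of 571 to 664 and 340 to 390. No array detected Ptprc, the pan-leukocyte CD45. Of 4 sex-linked genes kept, 2 rose and 1 fell, and with median scaling 1 of the rises, that of Kdm5d, lost its call. Each of the 4, the Y-linked Eif2s3y and Kdm5d included, was detected on at least 1 wild-type array. Xist, transcribed from the inactive X chromosome, had detected signal in every wild-type and in no knockout replicate, at least 14.1-fold lower (limma adjusted p = 5.36e-06), and the Y-linked Eif2s3y rose by 1.40 ± 0.17 (SE, adjusted p = 5.05e-04). The part of these differences in the results for the epithelial and mesothelial genes was not tested, and genotype cannot be told apart from whatever else differed between the 2 sets of culture batches.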

How the data were processed

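Intensities per probe and array were deposited by the authors with no background subtracted and no scaling, as the values show, beside a detection p-value that per the file headers was given for each probe and array. The authors also deposited a matrix on the log2 scale, normalized between arrays, but its background correction is not stated. GenomeStudio 2011.1, limma 3.10.2 and R 2.14.0 appear in the submitters' processing notes, with no role attached.

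The neqc function of limma 3.58.1 (R 4.3.3) normalized the raw intensities (normexp background from the detection p-values, offset 16, quantile normalization, log2). The offset shrinks differences of dim probes. Probes with a detection p under 0.05 on at least 3 of 6 arrays were kept, 15527 of 45281. Knockout was compared with wild-type by lmFit and eBayes, with Benjamini-Hochberg adjustment over all 15527, and a gene stands for its brightest kept probe. All adjusted p-values are from this limma fit. Symbols came from the platform annotation, updated for the other lists through the RefSeq table of GRCm38.p6: 34885 probes had 1 symbol, 18 several and 10378 none. A fold written "at least" applies where 1 genotype had no detected array. Only 3 arrays per genotype limit the precision.

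The members and the 16 other gene lists were chosen with earlier results of these data known. Genes named are every member, Fhl2, up to 5 genes of each list with the smallest p, Acta2, Tagln, Cnn1 and Myh11, and the 3 nearest profiles of each member. Any other gene named was chosen after its values were seen. No slide or scan date is stated, and batches were therefore not tested.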

Additional observations from a re-analysis of the deposited data

How the results depend on the processing

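The direction of all 6 members with a kept probe was the same under each alternative run, from no background correction, which gave the smallest differences, to the authors' deposited log2 matrix, which gave the largest (6.68 for Upk1b, 4.72 for Ppl and 0.74 for Krt7). Krt7 was left out by a detection p under 0.01. With that threshold, 5 in place of 6 members were detected on all 3 knockout arrays and 0 in place of 1 on all 3 wild-type arrays. Scaling to a common median gave 685 probes higher and 1082 lower in place of 2235 and 2361, and 0 genes of the 6 lists lower in place of 1, and it left 28 of 75 called list genes uncalled. The cause was not tested. With the mean of all kept probes of a gene, 17 genes of the 6 lists were higher, in place of 16, and 2 lower. Leaving out 1 array, with normalization and filter kept, gave 1636 to 2147 probes higher and 1803 to 2160 lower, and 15 to 16 list genes higher and 0 to 2 lower. Of the 75 called list genes, 17 lost their call in some such fit and 0 changed sign under any alternative. Replicates of the same number were not paired by the labels, and their deviations correlated at 0.118, 0.073 and 0.064, higher than with any other number. With the replicate number as a block, 2147 probes were higher and 2258 lower, 16 genes of the 6 lists were higher and 1 lower, and 8 of the 75 list calls were lost. Probes near background, as those of Krt8 and Krt18, allow no statement on a change.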
